A study of Mus musculus with 16 samples.

Results

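Myeloperoxidase (Mpo), the serine proteases Elane, Prtn3 and Ctsg, the membrane protein gene Ms4a3 and the transcription factor genes Cebpe and Gfi1 were described across all 16 libraries of a mouse liver cancer study. These 7 genes of the primary granules and of granulocyte precursors were picked by symbol from the 47069 rows of the deposited table, and each matched 1 row. They had been chosen with their difference between the diets in liver at 5 months known, so values of that contrast are given as a description, with no test. Earlier results of the diet comparison in liver at 9 months were known too, so its p-values are not independent of that knowledge. All mice had received diethylnitrosamine (DEN), a carcinogen that gives rise to hepatocellular carcinoma. The groups were tumours of DEN-treated mice at 9 months on a high-fructose diet (3 libraries) or a cornstarch diet (2), liver of DEN-treated mice at 9 months on the high-fructose diet (3) or the cornstarch diet (3), and liver of DEN-treated mice at 5 months on the high-fructose diet (2) or the cornstarch diet (3). Strain and sex were not given in the sources used here. Neither was which libraries came from separate mice, so a p-value here reflects the spread among libraries, and that spread may be technical.

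Primary granules are the first granules that form as a neutrophil matures, at the promyelocyte stage. Promyelocytes normally reside in the bone marrow, where they make myeloperoxidase, which turns hydrogen peroxide and chloride into hypochlorous acid, and the related serine proteases neutrophil elastase, proteinase 3 and cathepsin G. Transcription of these genes is largely switched off again before the cell leaves the marrow, so that a circulating neutrophil carries the proteins with little of the RNA. GFI1 is a repressor needed for neutrophil development, and CEBPE drives the later step at which the genes of the secondary granules come on.

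The letters just upstream of the RefSeq starts of the genes for the granule enzymes are shown because these were the members with the highest levels per length in the 5-month fructose livers. RefSeq holds promoter windows on GRCm38.p6 for 6 of the 7 members, all but Cebpe. The 250 bases before each RefSeq start were searched on both strands for AGGAAGT, the core letters bound by PU.1 and other ETS factors, and for CAACNG, letters bound by MYB. The stretches below are given 5′ to 3′ on the strand of the gene. Bases that GENCODE places in an exon were left out, and capitals mark the letters found. They come from chr11:87793534-87793580 on the plus strand for Mpo, chr10:79886062-79886246 on the plus strand for Elane, chr10:79879417-79879613 on the plus strand for Prtn3 and chr14:56102575-56102824 on the minus strand for Ctsg. The Prtn3 stretch lies inside the gene as GENCODE draws it, with a start at 79874476, while the RefSeq start is at 79879667.
Mpo: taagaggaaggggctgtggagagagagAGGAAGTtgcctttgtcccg
Elane: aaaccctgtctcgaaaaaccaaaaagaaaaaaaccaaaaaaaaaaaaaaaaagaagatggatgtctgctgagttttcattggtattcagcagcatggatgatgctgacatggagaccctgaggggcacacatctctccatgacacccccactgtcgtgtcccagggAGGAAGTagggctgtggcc
Prtn3: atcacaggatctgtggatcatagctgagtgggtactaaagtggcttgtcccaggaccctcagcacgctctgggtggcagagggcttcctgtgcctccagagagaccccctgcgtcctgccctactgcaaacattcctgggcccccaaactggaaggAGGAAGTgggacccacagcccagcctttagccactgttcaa
Ctsg: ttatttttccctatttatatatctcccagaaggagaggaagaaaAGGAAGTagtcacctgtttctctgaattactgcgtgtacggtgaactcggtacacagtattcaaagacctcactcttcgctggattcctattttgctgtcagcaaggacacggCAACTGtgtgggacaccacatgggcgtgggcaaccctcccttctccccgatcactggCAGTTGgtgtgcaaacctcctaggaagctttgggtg

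AGGAAGT stood in these 4 of the 6 members with a window, in each case on the strand of the gene, starting 223 bases before the RefSeq start of Mpo, 84 before that of Elane, 94 before that of Prtn3 and 206 before that of Ctsg. CAACNG stood in 3 of them. In Elane and Prtn3 it read CAACGG, 51 and 56 bases before the start, in stretches that are not printed because they lie in or reach into a GENCODE exon. In Ctsg it read CAACTG on the strand of the gene, 93 bases before the start, and again on the opposite strand 36 bases before it. Among all 32851 windows of the same length, 7.69% held AGGAAGT, 29.3% held CAACNG and 2.37% held both. The 2 motifs share no letters in these windows, and a match is a description of letters, not of binding. Ms4a3 and Gfi1 held neither motif in their windows.

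The libraries held 11232461 to 38377674 reads, the deepest being a 9-month fructose liver (replicate 3) and the shallowest a 9-month cornstarch liver (replicate 2). Between 5.46% and 16.5% of a library's reads fell on Alb, the albumin gene of hepatocytes, tumours included. Replicate 1 of each 5-month group had Xist at 12936 (fructose) and 10883 (cornstarch) with Y-linked sums of 0 and 1.91, while the other 14 libraries had Y-linked signal, so both 5-month groups mix the sexes. Replicate 3 of the 9-month cornstarch livers had Xist at 226, against at most 25.8 in the other 9-month libraries, and the lowest Y-linked sum of them at 1593. All levels are normalised counts, which are reads divided by 1 size factor per library, and 1 read was worth 0.453 to 1.54 of them.

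In liver at 5 months, the granule enzymes, Ms4a3 and Gfi1 stood high in both fructose livers and at or near 0 in the 3 cornstarch livers. Mpo (ENSMUSG00000009350, GRCm38 chromosome 11, 87793581 to 87804413) had 3144 and 2414 normalised counts in the fructose livers, against 1.91, 0 and 0 in the cornstarch livers. These were 4269 reads against 2, a ratio of 3790 with a 95% counting interval of 1049 to 31310. Mpo was the most abundant of the 7 genes there in normalised counts. In RNA of whole tissue, fewer cells of a type and less RNA per cell cannot be told apart.

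Elane, the gene of neutrophil elastase (ENSMUSG00000020125, chromosome 10, 79886247 to 79888215), had 913.0 and 711.6 in the 5-month fructose livers, against 0, 0 and 1.33 in the cornstarch livers. The reads were 1249 against 1, a ratio of 2218 with an interval of 397 to 87680. Prtn3, which encodes proteinase 3 and lies 3072 bases upstream of Elane on the same strand (ENSMUSG00000057729, 79874476 to 79883174), had 1660 and 1647 in the fructose livers, against 11.5, 4.11 and 5.33 in the cornstarch livers. It was the member of the protease trio with reads in every library of the study. Its ratio at 5 months was 229 (148 to 376). Ctsg, the gene of cathepsin G (ENSMUSG00000040314, chromosome 14, 56099881 to 56102574), had 398 and 360 in the fructose livers, against 0 in each of the 3 cornstarch livers.

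Ms4a3, a marker of the precursors shared by granulocytes and monocytes (ENSMUSG00000024681, chromosome 19, 11629496 to 11640851), had 220.2 and 228 in the 5-month fructose livers, against 0 in all 3 cornstarch livers. Set against a floor of 3 reads in each cornstarch library, Ctsg was at least 114-fold and Ms4a3 at least 67.7-fold higher. Gfi1 (ENSMUSG00000029275, chromosome 5, 107716657 to 107726036) was the least abundant member in these livers, with 43.8 and 38.8 in the fructose livers, against 1.91, 0 and 0 in the cornstarch livers. Its ratio was 56.8 with an interval of 15.1 to 479, from 64 reads against 2.

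Cebpe did not share this pattern. It had 117 and 163 normalised counts in the 5-month fructose livers, against 43.9, 104.8 and 97.2 in the cornstarch livers, a ratio of 1.79 (1.48 to 2.17). Cebpe (ENSMUSG00000052435, chromosome 14, 54710360 to 54712174) was thus read in livers where Ctsg and Ms4a3 had 0 reads. Counted gene by gene, 7 of 7 members had all their 5-month fructose values above all their cornstarch values, the contrast they were chosen on, while 27.1% of the 14317 genes tested in liver did and 24.7% were lower without overlap. The intervals cover counting error only.

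**Figure D1:**
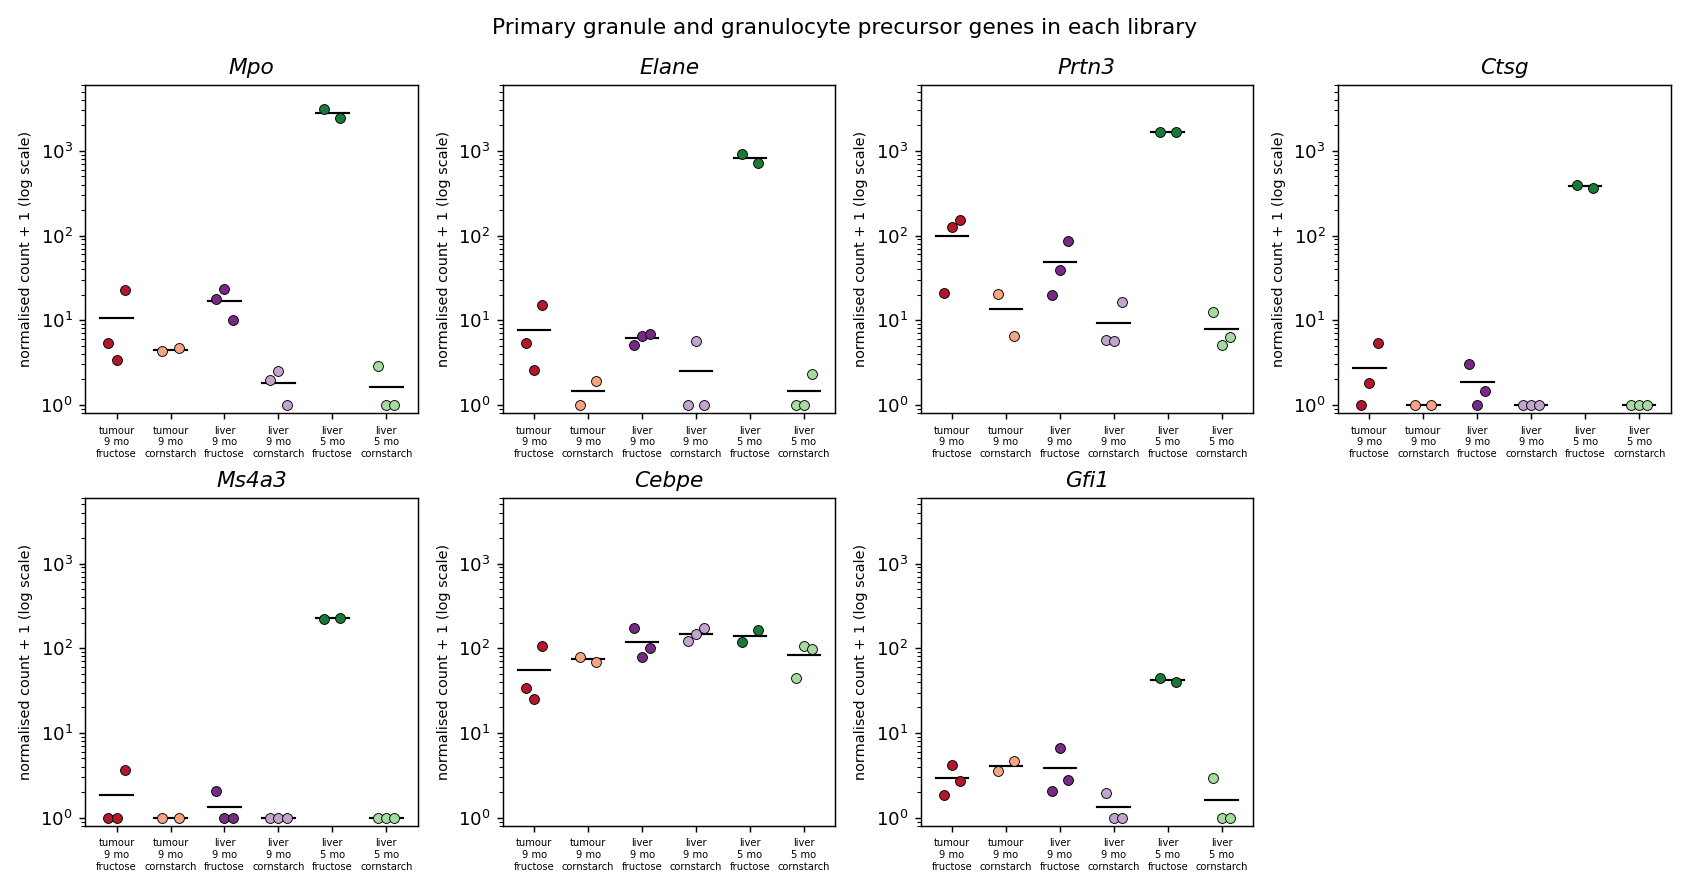
Normalised count plus 1 of each of the 7 genes on a log axis, 1 point per library and a bar at the group mean, with groups from fructose tumours at 9 months on the left to cornstarch livers at 5 months on the right. The 5-month fructose livers stand apart for every gene but Cebpe, whose 6 groups lie within 24.3 to 175.

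Divided by the length of their exons, the granule enzymes of the 5-month fructose livers stood close together. Prtn3 had 955 ± 5.12 normalised counts per kilobase of exon, Elane 825.5 ± 145 and Mpo 812 ± 151 (SD, n = 2 each), differences within 1 SD of Elane and Mpo, and Ctsg had 367 ± 26.2. Ms4a3 at 119 ± 3.09 and Cebpe at 113 ± 26.6 per kilobase did not differ beyond their spread, and Gfi1 followed at 13.0 ± 1.09. In the 5-month cornstarch livers the order on this scale was another one, led by Cebpe at 66.0 ± 26.7, with Prtn3 at 4.02 ± 2.27 and each of the other 5 below 1 (SD, n = 3).

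The diets were then compared in the livers of 9 months, the age of the tumours, where earlier results of the comparison were known. Mpo was higher in the fructose livers and passed the test, at levels far under those of 5 months. It had 16.6, 22.4 and 9.06 normalised counts in the fructose livers, against 0.964, 1.54 and 0 in the cornstarch livers, from 56 reads against 2. The groups did not overlap, and the ratio of the pooled counts was 17.4, with an interval of 4.60 to 147 that covers counting error only. The log2 fold change on the log2(value + 1) scale was 3.23 (SE 0.54, limma adjusted p = 0.0243). Mpo was the 1 of 7 members called, where 2.54% of 14317 genes were called, 2.32% higher and 0.217% lower.

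The call for Mpo was lost with any 1 fructose library left out. Calls over all 14317 genes fell as well in those fits, from 363 to as few as 0, so the loss was not particular to Mpo. The log2 fold change of Mpo was 2.85 to 3.57 with 1 library left out. Its limma adjusted p became 0.0779, 0.0648 and 0.059 when fructose replicates 1, 2 and 3 were left out in turn. Leaving out cornstarch replicate 3, the library with Xist at 226, gave a limma adjusted p of 0.0682. It was 0.0505 without the XX libraries of 5 months, which are in neither group compared, 0.086 in a fit of the 6 libraries compared and 0.0844 with a pseudocount of 0.1.

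Prtn3 at 9 months had 18.7, 38.1 and 84.7 in the fructose livers, against 4.82, 4.61 and 15.5 in the cornstarch livers. These groups did not overlap either, and the log2 fold change was 2.31 (SE 0.58). Prtn3 missed the threshold with limma (adjusted p = 0.0636) and DESeq2 called it (adjusted p = 0.000776). Elane had 4.16, 5.60 and 5.89 in the fructose livers, against 0, 4.61 and 0 in the cornstarch livers, and the groups overlapped. Its limma adjusted p was 0.172, and 0.0355 without cornstarch replicate 2, the 1 cornstarch liver with Elane reads. Elane reached the filter in the 5-month fructose livers alone, so this p is no support for a difference. Gfi1 had 1.04, 5.60 and 1.81 in the fructose livers, against 0.964, 0 and 0 in the cornstarch livers, 10 reads against 1, and was not called (limma adjusted p = 0.266).

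Ctsg and Ms4a3, the members with 0 reads in the cornstarch livers of both ages, were at the limit of detection in fructose livers at 9 months. Ctsg had 3 reads in the 3 fructose livers, against 0 reads in the cornstarch livers, and Ms4a3 had 1 read against 0. Cebpe pointed the other way, with 175, 77.3 and 100.2 in the fructose livers, against 123, 146 and 173 in the cornstarch livers, and did not pass (log2 fold change -0.39, SE 0.37, limma adjusted p = 0.584). Elane, Ctsg, Ms4a3 and Gfi1 entered this test only through their levels in the 5-month fructose livers. Mpo and Prtn3, of the 3 members that reached 10 in 2 of the 9-month livers, had higher fructose values without overlap, where 12.9% of all genes tested were higher and 10.7% lower in this way. Gfi1, at 10 reads against 1, also had groups that did not overlap.

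In tumours the comparison of diets held 3 fructose and 2 cornstarch libraries. Prtn3 had 20.0, 125 and 151 normalised counts in the fructose tumours, against 19.4 and 5.47 in the cornstarch tumours. Its lowest fructose value lay just above its highest cornstarch value, and the log2 fold change was 2.69 (SE 0.94, 95% interval 0.62 to 4.76, limma adjusted p = 0.527). Elane was likewise higher without overlap, at 4.35, 1.62 and 13.9 in the fructose tumours, against 0 and 0.911 in the cornstarch tumours. It was too low in the 9-month libraries to be tested.

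Mpo had 4.35, 2.43 and 21.7 in the fructose tumours, against 3.37 and 3.64 in the cornstarch tumours, where the groups overlapped (log2 fold change 0.73, SE 0.82, limma adjusted p = 0.848). Without fructose tumour replicate 3 the difference was -0.0728. That library had the highest Mpo, Elane, Prtn3, Ctsg, Ms4a3 and Cebpe levels of the 5 tumours. It also held 295.8 summed normalised counts of the mast cell genes Cpa3, Cma1, Tpsb2 and Mcpt4, against 1.74 and 0.809 in the other fructose tumours and 3.37 and 0 in the cornstarch tumours, and their part in the result was not tested. Of the 11 markers of eosinophils, basophils and mast cells together, the sum was 335.8 in it and 31.3 to 94.7 in the other tumours. The red cell precursor markers summed to 3795 in it and to 850 to 1399 in the other tumours, the megakaryocyte markers to 122 and 64.7 to 68.7, and the cell division genes to 1592 and 437 to 1022. The part of these in the result was not tested either.

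Ctsg had 0, 0.809 and 4.35 in the fructose tumours, against 0 and 0 in the cornstarch tumours, and Ms4a3 had reads only in fructose tumour replicate 3, where it stood at 2.61. Cebpe had 33.0, 24.3 and 106 in the fructose tumours, against 78.2 and 68.3 in the cornstarch tumours (log2 fold change -0.71, SE 0.54, limma adjusted p = 0.756). Gfi1 had 0.869, 3.24 and 1.74 in the fructose tumours, against 2.52 and 3.64 in the cornstarch tumours. With limma 0 of the 3 tested members and 0% of 14503 genes were called for diet in tumours, where 1 member, Prtn3, had an unadjusted p under 0.05. edgeR and DESeq2 called 0 members as well. Of the 3 members past the filter on low values, 1 (Prtn3) had higher fructose values without overlap, where 10.9% of the genes past it did and 12.5% had lower ones. Of the 4 members under the filter, to which these shares do not apply, Elane was higher without overlap.

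Tumour against liver of the same diet gave no call for any of the 3 members tested. Under fructose, Prtn3 had 20.0 to 151 in tumours, against 18.7 to 84.7 in liver, and the groups overlapped (log2 fold change 0.87, SE 0.84, limma adjusted p = 0.551). Mpo ran the other way, with 2.43 to 21.7 in fructose tumours, against 9.06 to 22.4 in fructose livers (log2 fold change -1.11, SE 0.74, limma adjusted p = 0.374). Cebpe had 24.3 to 106 in the fructose tumours, against 77.3 to 175 in the fructose livers, and its log2 fold change was -1.31 (SE 0.48, limma adjusted p = 0.111). Without fructose tumour replicate 3, the Cebpe difference was -1.93 and passed (limma adjusted p = 0.00788). Of all genes 10.2% were called in this comparison, 5.75% higher and 4.46% lower in tumours. Groups that did not overlap were found for 0 of the 3 members past the filter, while 17.2% of the genes past it were higher and 16.8% lower in this way. The 4 members under the filter, to which these shares do not apply, overlapped too.

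Under cornstarch, Mpo stood at 3.37 and 3.64 in tumours, against 0.964, 1.54 and 0 in liver, without overlap but from 8 reads against 2 (log2 fold change 1.40, SE 0.82, limma adjusted p = 0.344). Cebpe stood at 78.2 and 68.3 in cornstarch tumours, against 123, 146 and 173 in cornstarch livers, also without overlap (log2 fold change -0.98, SE 0.54, limma adjusted p = 0.306). Prtn3 stood at 19.4 and 5.47 in cornstarch tumours, against 4.82, 4.61 and 15.5 in cornstarch livers (log2 fold change 0.50, SE 0.94, limma adjusted p = 0.798). The Prtn3 groups overlapped, while Gfi1 had 2.52 and 3.64 in cornstarch tumours, against 0.964, 0 and 0 in cornstarch livers, without overlap. Here 5.71% of genes were called, 4.82% higher and 0.889% lower in tumours. Of the 3 members past the filter 1 (Mpo) was higher and 1 (Cebpe) lower without overlap, where 21.8% and 18.7% of the genes past it were. Gfi1, with 7 reads in the tumours and 1 in the livers, was under the filter, and these shares do not apply to it. By edgeR and DESeq2, 0 members were called for tumour against liver under either diet, and by limma 1 member (Cebpe) had an unadjusted p under 0.05 under fructose and 0 under cornstarch.

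The difference of the diet effect between tumours and liver at 9 months was also tested. For Mpo it was -2.50 on the log2 scale (SE 1.11, unadjusted p = 0.0459, limma adjusted p = 1), for Prtn3 0.38 (SE 1.26) and for Cebpe -0.32 (SE 0.72). No gene of the 14503 was called by limma, edgeR or DESeq2 (0%), and 424 had an unadjusted p under 0.05. The diet effects in tumour and liver were thus not shown to differ for these 3 genes.

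Set side by side by age, the fructose livers of 9 months had far lower levels of 6 members than those of 5 months. Mpo averaged 16.0 ± 6.69 at 9 months (SD, n = 3) and 2779 ± 517 at 5 months (SD, n = 2) under fructose, a ratio of 0.00504. The ratios were 0.00677 for Elane, 0.0356 for Prtn3, 0.00196 for Ctsg, 0.00110 for Ms4a3 and 0.0601 for Gfi1, and in none of these did the ages overlap. Of the 14317 genes past the liver filter, 22.3% were lower and 17.5% higher at 9 months without overlap under fructose, and Elane, Ctsg, Ms4a3 and Gfi1 passed it through the 5-month libraries alone, so nothing is read from the count of 6. Cebpe averaged 117 ± 51.0 at 9 months and 140.0 ± 33.0 at 5 months under fructose, and the ages overlapped. Under cornstarch the 6 members other than Cebpe overlapped between the ages, while Cebpe had 123 to 173 at 9 months, against 43.9 to 105 at 5 months. Without overlap, 9.18% of the genes were higher and 8.98% lower at 9 months under cornstarch. No test was made of age, since the 5-month libraries belong to the contrast on which the members were chosen.

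The order of the 6 groups showed the same step for each gene but Cebpe. The 5-month fructose livers came first without overlap with the next group for Mpo, Elane, Prtn3, Ctsg, Ms4a3 and Gfi1. The next 2 places were held by the fructose tumours and fructose livers of 9 months for Mpo, Elane, Prtn3, Ctsg and Ms4a3, always with overlap between the pair. For Ctsg these places rested on 6 reads in the tumours and 3 in the livers, and for Ms4a3 on 3 and 1. Both genes had 0 reads in every cornstarch group, so nothing is read from their order below the first place. For Gfi1 the cornstarch tumours came second, at 3.08 ± 0.79 (SD, n = 2), from 7 reads. Below the 5-month fructose livers, the neighbours in each order overlapped except for Mpo, where the cornstarch tumours at 3.51 ± 0.20 (SD, n = 2) stood apart from the cornstarch livers of 9 months at 0.834 ± 0.777 (SD, n = 3). For Cebpe the group means were 54.5 in fructose tumours, 73.3 in cornstarch tumours, 117 in fructose and 147 in cornstarch livers of 9 months, and 140.0 in fructose and 82.0 in cornstarch livers of 5 months, and all neighbours in its order overlapped.

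The balance between the neighbours Prtn3 and Elane is given as the share of Prtn3 in the reads of both. Prtn3 made up 82.1%, 98.7% and 91.6% of the reads of the pair in the fructose tumours, and 81.8%, 87.2% and 93.5% in the 9-month fructose livers. In the 5-month fructose livers the share was 64.5% and 69.8%, with exact 95% intervals of 62.2% to 66.7% and 67.8% to 71.8%. All 6 of the 9-month fructose libraries lay above both 5-month fructose livers, although the intervals of replicate 1 of the 9-month fructose livers (59.7% to 94.8%) and of replicate 1 of the fructose tumours (63.1% to 93.9%) reached down to theirs. The cornstarch groups had 21 to 30 reads of the pair in all, with shares of 96.7% in tumours, 87.5% in livers of 9 months and 95.2% in livers of 5 months. No test was made of this share. Mpo made up 58.9% of the pooled reads of Mpo and Elane in fructose tumours (45.0% to 71.9%). The pooled share was 71.8% in fructose livers of 9 months (60.5% to 81.4%) and 77.4% in those of 5 months (76.2% to 78.5%). These intervals cover counting error only, not the spread among libraries. All 3 fructose tumours lay below both 5-month fructose livers (77.5% and 77.2%), but replicate 3 held 41 of their 56 reads. Of the 9-month fructose livers, replicates 1 and 2 lay above both 5-month fructose livers and replicate 3 below, at 60.6%. No test was made, so no order of the groups is read from these shares.

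Reads of overlapping genes could enter the Prtn3 value, since no source used here says whether counting was stranded. Plppr3 on the opposite strand shares 159 bases with Prtn3, and it had 111 and 128 in the 5-month fructose livers, against 27.7, 41.1 and 25.3 in the cornstarch livers, and 20.0 to 66.7 in the 9-month libraries. The antisense gene Gm11505 lies inside Mpo and had 4.38 and 3.43 in the 5-month fructose livers and 0 in the other 14 libraries.

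**Figure D2:**
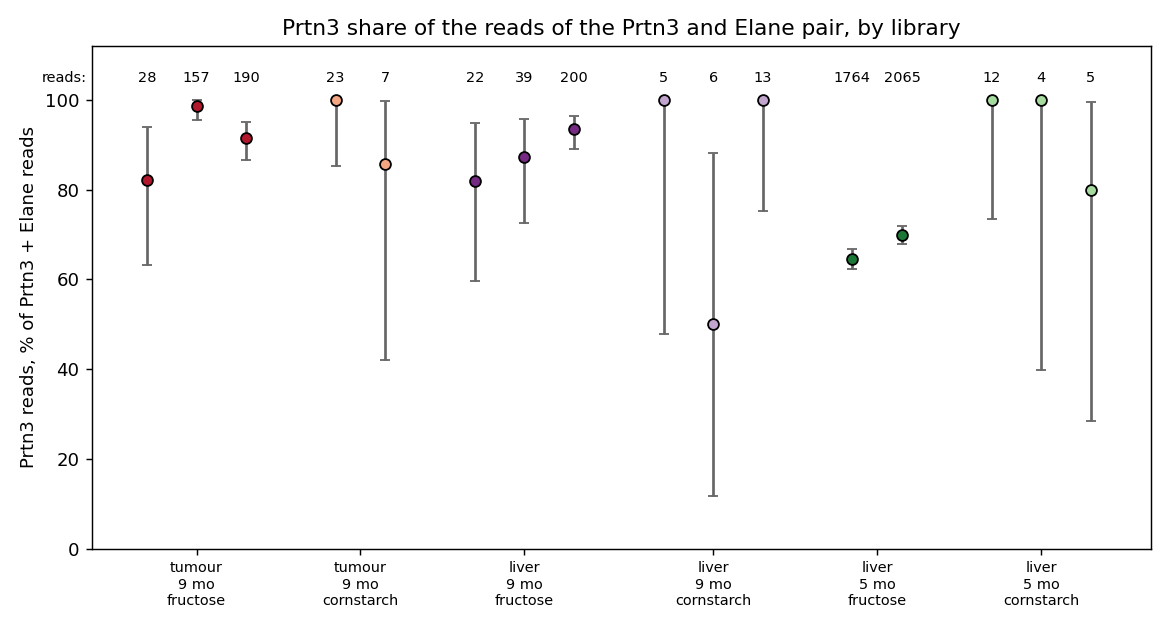
Share of Prtn3 in the summed reads of Prtn3 and Elane, in percent, for each library with its exact 95% interval, and the number of reads above each point. All 3 fructose tumours and all 3 fructose livers of 9 months lie above both 5-month fructose livers, which have 1764 and 2065 reads.

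Other genes of the primary granules and promyelocytes were also high in the 5-month fructose livers. Of 13 past the filter on low values, 12 had fructose values above all cornstarch values and 0 below, where 27.1% of all genes were higher and 24.7% lower in this way. Their median log2 fold change was 2.19, against -0.01 over all genes. Prss57, Fcnb, Cst7, Trem3 and Rab44 passed the filter through the 5-month fructose livers alone, so nothing is read from the count of 12. Prss57, a further serine protease of these granules, had 48.1 and 34.3 in the fructose livers, against 0 in all 3 cornstarch livers, and the ficolin gene Fcnb had 140.0 and 109 against 0. Lyz2, the lysozyme gene that macrophages express too, had 5859 and 5789 in the fructose livers, against 1482, 1105 and 2486 in the cornstarch livers. Ctsc, whose product activates the granule proteases by trimming them, had 3656 and 3788 in the fructose livers, against 2040, 1177 and 2108 in the cornstarch livers. Cd63, a membrane protein of primary granules and of many other vesicles, had 261 and 288 in the fructose livers, against 65.9, 53.4 and 26.6 in the cornstarch livers. Bpi was at 0 in all libraries.

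Among the other transcription factors of granulopoiesis, 7 of 9 were higher without overlap and 1 lower at 5 months, where 27.1% and 24.7% of all genes were. Myb, a factor of immature blood cells, had 105.0 and 84.5 in the fructose livers, against 0 in the 3 cornstarch livers. It passed the filter through these fructose livers alone, so nothing is read from the count of 7. Cebpb, the factor of emergency granulopoiesis that hepatocytes express as well, had 5382 and 4278 in the fructose livers, against 1150, 956 and 2293 in the cornstarch livers. Cebpa, which hepatocytes also express, was the lower one, at 3496 and 3921 in the fructose livers, against 4372, 5720 and 6551 in the cornstarch livers. Irf8, a factor of the monocyte branch, had 315.0 and 387 in the fructose livers, against 191, 106 and 178 in the cornstarch livers. Of 11 growth factor and receptor genes, 9 were higher and 0 lower without overlap, against the same shares of all genes. Among the 9 was Csf3r, the G-CSF receptor gene, at 405 and 390 in the fructose livers, against 67.8, 48.3 and 62.6 in the cornstarch livers. Csf2rb, a subunit of the GM-CSF receptor, had 785 and 1143 in the fructose livers, against 195, 162 and 253 in the cornstarch livers, and Csf1r, the receptor gene of macrophages, had 2895 and 3149 against 1498, 997 and 1892. Csf2ra, the other GM-CSF receptor subunit, had 282 and 289 in the fructose livers, against 109, 64.7 and 98.5 in the cornstarch livers. Csf3, the gene of the ligand of CSF3R, was at 0 in all libraries.

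Of 9 inhibitors of serine proteases, 4 were higher and 3 lower without overlap in the 5-month fructose livers, where 27.1% and 24.7% of all genes were. Serpinb1a, whose product inhibits elastase, proteinase 3 and cathepsin G inside neutrophils, had 329.6 and 319.8 in the fructose livers, against 43.9, 101 and 63.9 in the cornstarch livers. Slpi, whose product blocks neutrophil elastase, had 169 and 256 in the fructose livers, against 21.9, 5.14 and 10.7 in the cornstarch livers. The other higher ones were Serpina3n and A2m, acute phase genes of the liver. The 3 lower ones were Serpina1b, Serpina1c and Serpina1d, copies of the alpha-1 antitrypsin gene so alike that reads may be split between them, which makes their values uncertain.

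The genes of the late granules and mature neutrophils were high in the same 5-month fructose livers, in 16 of 16 without overlap and at a median log2 fold change of 7.51. Over all genes tested in liver, 27.1% were higher and 24.7% lower without overlap. Camp, Mmp8, Cd177, Itgb2l, Ly6g, Pglyrp1 and Olfm4 passed the filter through these fructose livers alone, so nothing is read from the count of 16. S100a9, a calprotectin subunit, had 6741 and 6966 in the fructose livers, against 43.9, 5.14 and 22.6 in the cornstarch livers. Lcn2, which hepatocytes secrete in inflammation, had 37060 and 69070 in the fructose livers, against 912, 459 and 91.9 in the cornstarch livers. Summed over the other 15, the level was 25230 and 24170 in the fructose livers, against 136, 29.8 and 66.6 in the cornstarch livers. The sum of Mpo, Elane, Ctsg and Ms4a3 was 4676 and 3714 in the fructose livers, against 1.91, 0 and 1.33 in the cornstarch livers. Markers of other blood lineages, though not all of them, were higher in the same 2 libraries, and their part in the members' levels was not tested. Among markers past the filter, that held without overlap for 5 of 5 monocyte, 4 of 4 megakaryocyte and 3 of 4 eosinophil, basophil and mast cell markers. It also held for 3 of 6 red cell precursor and 3 of 6 lymphocyte markers, and for 6 of 6 cell division genes, against 27.1% of all genes. Only 4 of 11 eosinophil, basophil and mast cell markers passed the filter. Prg2, Mcpt8, Prss34 and Gp1bb passed it through the 5-month fructose livers alone, so nothing is read from the counts that hold them. The monocyte markers summed to 2008 and 2530 in the fructose livers, against 119 to 182 in the cornstarch livers. Ccr2, the chemokine receptor gene that led them by mean, had 459 and 748 in the fructose livers, against 33.4, 43.1 and 29.3 in the cornstarch livers. Fcgr1 had 199.8 and 233 in the fructose livers, against 64.9, 61.6 and 135 in the cornstarch livers, and F13a1 had 624 and 694 against 0.954, 4.11 and 10.7. The cell division genes summed to 1763 and 1523 in the fructose livers, against 163 to 265 in the cornstarch livers, with Mki67 at 757 and 603 against 43.0, 40.1 and 78.6. The megakaryocyte markers summed to 252 and 179 in the fructose livers, against 47.9 to 59.2 in the cornstarch livers, and the red cell precursor markers to 7254 and 5561 against 1260 to 2993. Itga2b, the integrin gene that led the megakaryocyte markers by mean, had 111 and 102 in the fructose livers, against 46.8, 41.1 and 35.9 in the cornstarch livers. Hba-a1, a globin gene, led the red cell markers without overlap, with 5315 and 3931 in the fructose livers, against 897, 507 and 546 in the cornstarch livers. The red cell markers Klf1, Epor and Alas2 overlapped, with log2 fold changes of -0.72 (SE 0.485), -0.143 (SE 0.289) and 0.615 (SE 0.838). The eosinophil, basophil and mast cell markers summed to 139 and 120 in the fructose livers, against 12.0 to 32.9 in the cornstarch livers, and the lymphocyte markers to 80.2 and 153 against 77.3 to 102. Prg2, an eosinophil granule gene, had 26.2 and 13.7 in the fructose livers, against 1.91, 0 and 0 in the cornstarch livers. Cd79a, a B cell gene, had 21.9 and 32.0 in the fructose livers, against 14.3, 5.14 and 17.3 in the cornstarch livers. The lymphocyte markers Cd4, Cd3e and Cd8a overlapped, with log2 fold changes of -1.2 (SE 0.634), -0.57 (SE 0.887) and 0.615 (SE 0.771). Epx, Mcpt8, Fcer1a, Ms4a2, Tpsb2, Mcpt4 and Rhag were at 0 in all 3 cornstarch livers, and no marker of these lists was at 0 in both fructose livers. Most of them were near the floor in the fructose livers too, where 3 reads were worth 4.38 and 3.43. Epx had 4.38 and 4.57 there, Fcer1a 1.46 and 4.57, Ms4a2 4.38 and 8.00, Tpsb2 5.83 and 0, and Mcpt4 1.46 and 0. Rhag had 19.0 and 1.14, and Mcpt8 16.0 and 16.0. Nothing is read from these zeros. Of 7 hepatocyte markers, 0 were higher and 3 lower, led by Ttr, a secreted carrier, at 61630 and 50960 in the fructose livers, against 84690, 84350 and 92840 in the cornstarch livers.

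**Figure D3:**
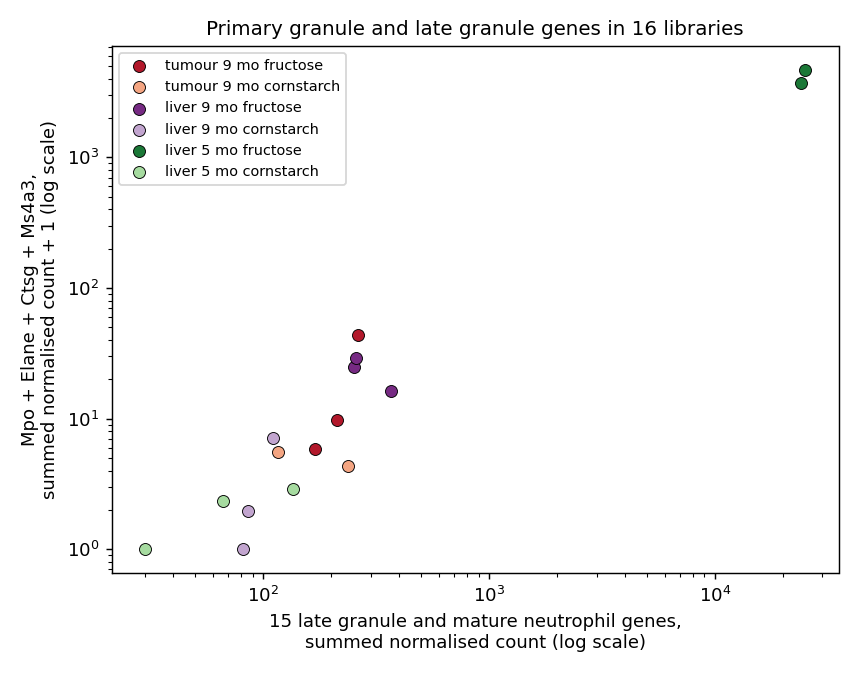
Summed normalised count of Mpo, Elane, Ctsg and Ms4a3, plus 1, against that of 15 late granule and mature neutrophil genes in the 16 libraries, both axes on a log scale and coloured by group. The 5-month fructose livers lie at 3714 and 4676 on the vertical axis, and the other 14 libraries at or below 42.6.

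At 9 months the same lists held the following limma calls for diet in liver, where 2.32% of all genes tested rose and 0.217% fell. Of 13 other primary granule genes 1 rose, Srgn, the proteoglycan that packs granule proteases, by 1.10 on the log2 scale (SE 0.23, limma adjusted p = 0.0364). Of 9 transcription factors 2 rose, Spi1, which encodes PU.1, by 1.79 (SE 0.29, limma adjusted p = 0.0243) and Irf8 by 1.01 (SE 0.21, limma adjusted p = 0.0377). Of 11 growth factor and receptor genes 1 rose, Csf1r, by 1.87 (SE 0.37, limma adjusted p = 0.0336), and of 5 monocyte markers 1 rose, Fcgr1, by 1.67 (SE 0.37, limma adjusted p = 0.0438). Of 9 protease inhibitors 1 rose, Slpi, by 2.95 (SE 0.63, limma adjusted p = 0.0416). None fell in these lists.

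Of 16 late granule genes, limma called 0 at 9 months, while 12 had a limma unadjusted p under 0.05, edgeR called 1 and DESeq2 6, and 11 were higher without overlap. Of all 14317 genes tested, 2939 had a limma unadjusted p under 0.05, and 12.9% were higher and 10.7% lower without overlap. Camp, Mmp8, Cd177, Itgb2l, Ly6g, Pglyrp1 and Olfm4 passed the filter through the 5-month fructose livers alone, so nothing is read from the counts of this list. The median log2 fold change of the late granule list was 1.57, against 1.42 for the 7 members (1.80 without Ctsg and Ms4a3, which were under the floor of 3 reads per library), 1.03 for the other primary granule genes and -0.02 for all genes. With genes under that floor left out likewise, the late granule list had 1.62 and the other primary granule genes 1.04. The 1.80 still holds Elane and Gfi1, which passed the filter through the 5-month fructose livers alone. With 1 library left out in turn, the calls numbered 0 to 3 of 13 for the other primary granule genes, 0 to 1 of 9 for the transcription factors, 0 to 3 of 11 for the receptors, 0 to 1 of 9 for the inhibitors, 0 to 1 of 5 for the monocyte markers and 0 to 2 of 16 for the late granule genes. Over all genes 363 were called with all libraries. Leaving out fructose replicates 1, 2 and 3 in turn gave 1, 5 and 0 calls, and leaving out cornstarch replicate 3 gave 11. Of the red cell, megakaryocyte, lymphocyte, eosinophil, cell division and hepatocyte lists, limma, edgeR and DESeq2 called 0 genes for diet in these livers, and 1, 0, 0, 1, 1 and 0 of their genes had a limma unadjusted p under 0.05. The monocyte markers summed to 283, 249 and 310 in the fructose livers of 9 months, against 101, 175 and 84.6 in the cornstarch livers.

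**Figure D4:**
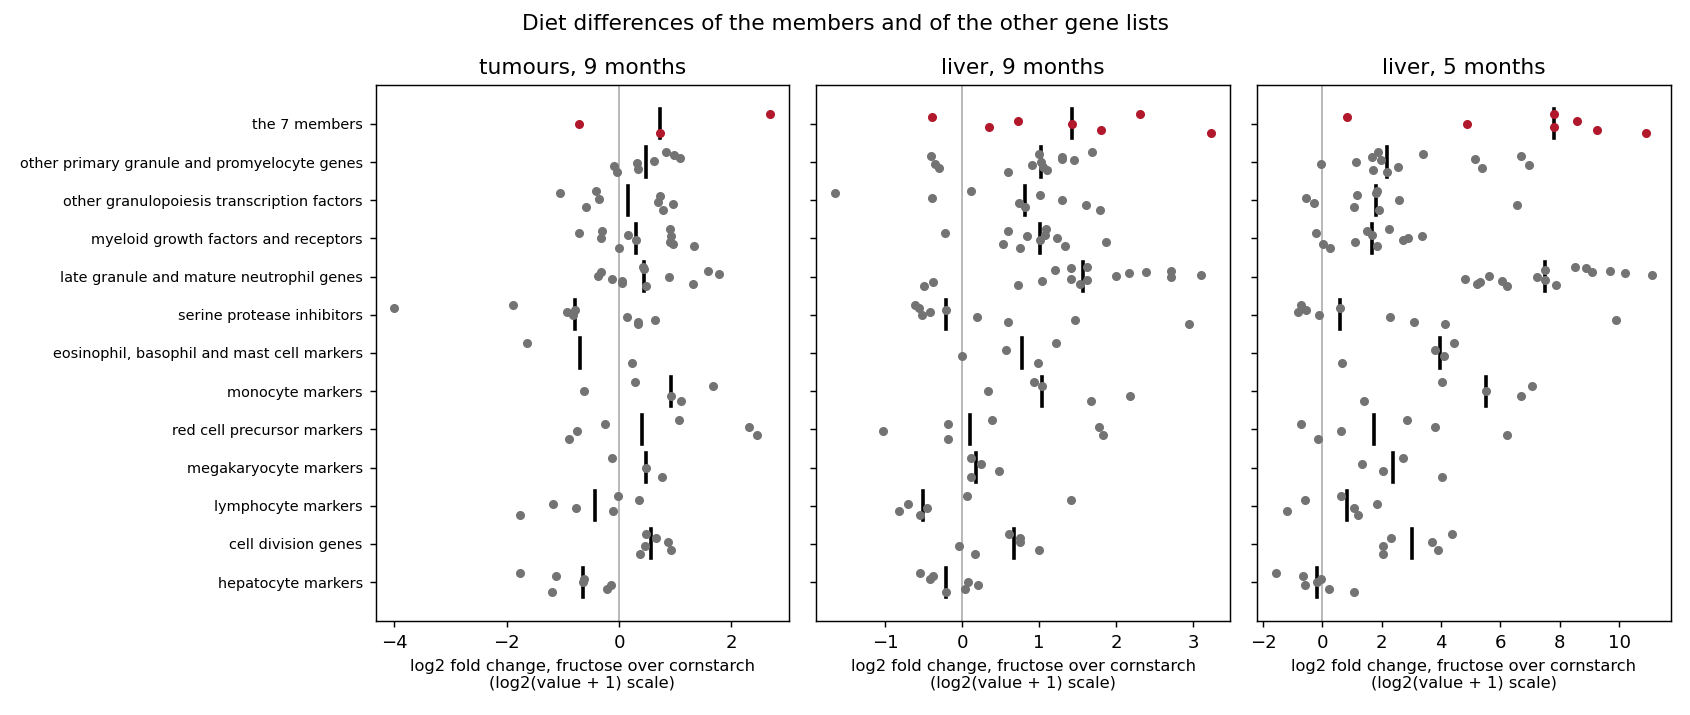
Log2 fold change of fructose over cornstarch on the log2(value + 1) scale for the 7 members (red; 3 of them in tumours) and for the genes of 12 other lists (grey), with a bar at each median, in tumours and liver at 9 months and in liver at 5 months. The member medians were 0.73, 1.42 and 7.82, or 6.84 at 5 months with Ctsg and Ms4a3 at their lower bounds and 1.80 in liver at 9 months without them, and the horizontal scales differ between panels.

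In tumours against liver, genes of several lists were called while 0 of the 3 tested members were. Of all genes tested, limma called 10.2% under fructose and 5.71% under cornstarch. Cd63 rose in tumours by 2.83 under fructose (SE 0.47, limma adjusted p = 0.0061) and by 3.96 under cornstarch (SE 0.53, limma adjusted p = 0.00368). Under fructose Ctsc fell by 1.36 (SE 0.30, limma adjusted p = 0.0185), and with Cd63 these were 2 of 8 tested genes of the primary granule list. Myc, Cd34, a gene of blood precursors and of endothelium, and the cell division gene Mcm6 also rose in fructose tumours, and the chemokine gene Cxcl12 and G6pc, a hepatocyte gene, fell. Of 12 late granule genes 0 were called under fructose by limma, edgeR and DESeq2, and 4 had a limma unadjusted p under 0.05. Under cornstarch 2 of 12 rose, Lcn2 by 3.90 (SE 0.89, limma adjusted p = 0.0335) and Pglyrp1, a peptidoglycan-binding protein of neutrophil granules, by 4.43 (SE 0.88, limma adjusted p = 0.0185). Of these 12 genes edgeR called 1 and DESeq2 called 3. Klf4, Cd34, Slpi and Prg2 rose in cornstarch tumours too. With 1 library left out, the calls among the late granule genes under cornstarch numbered 0 to 2.

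The genes whose pattern over the 16 libraries was most like the mean log2 level of the 7 members were, among 11450 ranked, S100a9 (Pearson r = 0.975), S100a8 (0.974), Fcnb (0.974), Hmgb2 (0.971), Ngp (0.965), Bst1 (0.956), Slfn4 (0.955), Plac8 (0.953), Retnlg (0.952) and Lsp1 (0.948). These values describe 16 libraries in which 2 stand far from the rest, and libraries of a group share diet and age. Ngp, a neutrophil granule gene, had 4641 and 3844 in the 5-month fructose livers, against 6.68, 0 and 0 in the cornstarch livers. Hmgb2, a chromatin gene of dividing cells, had 604 and 530.0 in the 5-month fructose livers, against 80.2, 86.3 and 94.5 in the cornstarch livers. The r of the members with their own mean was 0.984 for Mpo, 0.983 for Ctsg, 0.976 for Ms4a3, 0.974 for Elane, 0.922 for Prtn3, 0.904 for Gfi1 and 0.282 for Cebpe.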

How the data were processed

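Messenger RNA of 16 samples was sequenced from TruSeq mRNA libraries, per the labels. The authors deposited 1 table of signal values, counts per gene divided by 1 size factor per library, as their steps show. The build GRCm38 and the tools STAR, RSEM, DESeq2, Trim Galore and FastQC are named in the submitters' processing notes. Filters, strandedness and versions were not given in the sources used here. Dividing by the step of 1 read gave whole numbers, within 0.01, for 100% of the deposited signal values above 0, though these reads may be rounded estimates. Of 47069 gene IDs, 46574 were in GENCODE M21, used for coordinates and exon lengths, and 22699 were at 0 in all libraries.

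The test was limma 3.58.1 (R 4.3.3) on log2(value + 1), with 1 coefficient for each group and a variance trend. A gene was tested if 2 or more libraries of the fit reached 10, and p-values were adjusted by Benjamini-Hochberg over all genes tested, at a threshold of 0.05. Liver diets were compared in a fit of the 11 liver libraries, tumours in a fit of the 11 libraries of 9 months. Fold changes on this scale understate the change of low genes. Ratios of reads carry exact conditional 95% intervals and shares exact binomial ones. The alternatives were edgeR 4.0.16 by quasi-likelihood and DESeq2 1.42.0 by Wald test on the recovered reads, other pseudocounts, filters and scalings, other sets of libraries, and each library left out. The steps were tested on simulated data. The labels give no replicate numbers, so libraries were numbered in accession order.

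The members and the gene lists were chosen with earlier results of these data known. Named genes are all members, the 10 genes most correlated with the members' mean (at least 50 in at least 2 libraries), and genes of the lists. Of each list the rule names the 3 highest by mean among those whose 5-month groups did not overlap. The text gives 1 to 3 of these from each list, starting with the highest, and others on whose role or call a sentence turns.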

Additional observations from a re-analysis of the deposited data

How the results depend on the processing

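In liver at 5 months, the 7 of 7 members with fructose values above all cornstarch values remained so under TMM and upper-quartile scaling. They also did without the XX libraries and without each library in turn, which was fixed in advance, since leaving out libraries cannot make such groups overlap. The members were chosen on this contrast, so these counts are a description and no support for it. For diet in liver at 9 months, the members called numbered 1 with limma, 0 with a pseudocount of 0.1, 0 in the fit of the compared groups alone, 0 without the XX libraries of 5 months, and 2 with DESeq2 (Mpo and Prtn3). With 1 library left out they numbered 0 to 2. Mpo had a positive log2 fold change in 17 of 17 alternatives and kept its call in 10, with adjusted p-values of 0.00317 to 0.086. The cause of the lost calls was not tested. For tumour against liver under fructose, the members called numbered 0 to 1 with 1 library left out. In the other comparisons the count was 0 under every alternative run.

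With 1 library left out, the sign turned in 4 of the tests that missed the threshold. Mpo ranged from -0.0728 (without fructose tumour replicate 3) to 1.29 for diet in tumours, and Prtn3 from -0.331 (without cornstarch tumour replicate 1) to 1.32 for tumour against liver under cornstarch. In the difference of the diet effects, Prtn3 ranged from -0.452 to 1.28, with values of -0.142, -0.134, -0.0114 and -0.146 without fructose liver replicate 1, cornstarch liver replicate 3 and fructose tumour replicates 2 and 3, and -0.452 without cornstarch tumour replicate 2. Cebpe ranged there from -0.944 to 0.0976, with 0.00612 without fructose liver replicate 1 and 0.0976 without fructose tumour replicate 2. The cause was not tested.

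Over all genes, limma called 363 for diet in liver at 9 months, DESeq2 969, the fit without the XX libraries 46, and the fits with 1 library left out 0 to 448. For diet in tumours DESeq2 called 119. For tumour against liver the calls were 1481 under fructose and 828 under cornstarch, 2463 and 1696 with DESeq2, 2246 and 1465 in the fit of all 16 libraries, and 568 to 1518 and 73 to 644 with 1 library left out. Depth limits Ctsg, Ms4a3 and Gfi1, whose groups outside the 5-month fructose livers held at most 10 reads each. No paired analysis was possible because the labels carry no replicate numbers.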
